A study of Homo sapiens with 18 samples.

Results

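Germline and cancer-testis genes are active in germ cells and, in most other tissues, are held silent by methylated promoters. They include genes of meiosis and of the piRNA pathway, which protects germ cells from transposons, and large X-linked families such as MAGE, GAGE and SSX that many tumours switch on. In germ cells such starts lose CpG methylation, and in somatic cells DNA methyltransferases and repressor complexes that read CpG or E-box sequences keep them off. A list of 40 such genes was matched by symbol, and all 40 had a row among the 55766 genes of the RNA count table. Of the 40, 26 are X-linked and 14 are autosomal.

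The libraries came from K562, an established human leukaemia line, and all cells, controls included, carried a B2M:tdTomato transgene. One group of cells was treated with TALE proteins and another with dCas9, which are programmable DNA-binding proteins, and the third group was untreated. Per the labels, treated cells received 3 plasmids that each coded for a different repressor, named ATR there, of which 1 is called D3A-based, and dCas9 cells also received a guide RNA plasmid. Each group had 3 RNA-seq libraries and 3 MeDIP-seq libraries, in which DNA fragments are captured with an antibody against methylated cytosine. The line is a single transformed line, and the time between treatment and collection is not given in the sources used here. An RNA library held 8460076 to 12050554 counts, and a MeDIP library 2529729 to 4492751. In the target check, the B2M_tomato entry lay at 359 to 393 CPM, the counts scaled to library size, in untreated cells, 12.5 to 18.2 in TALE cells and 13.9 to 19.0 in dCas9 cells. All 10 markers listed for K562 and the erythroid lineage, BCR among them, had a mean of at least 1 CPM in each group. Their summed level ran from 6080 to 9800 CPM. Markers of other lineages were not all low. All 4 fibroblast and epithelial markers reached a mean of 1 CPM in each group, with KRT18 at 214 and EPCAM at 102 CPM in untreated cells. So did 1 of 3 T cell markers (CD3D, 23.3 CPM untreated), 1 of 2 monocyte markers (LYZ, 22.6 CPM) and 0 of 3 B cell markers. Of 6 markers of testis support cells and sperm, 1 reached a mean of 1 CPM, with a summed level between 1.08 and 2.90 CPM over the 9 libraries. Untreated replicate 3 stood apart, with a count in 59.4% of gene rows where the other 8 libraries had one in 38.9% to 44.8%.

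Stretches of 120 bases just upstream of 4 transcript starts show how the CpG content of these genes differs, with each CpG in capitals. They were read from the GRCh37 genome in the gene's own direction. PRAME and SSX1 were the most abundant members and SYCP3 and DAZL were at trace level.
PRAME: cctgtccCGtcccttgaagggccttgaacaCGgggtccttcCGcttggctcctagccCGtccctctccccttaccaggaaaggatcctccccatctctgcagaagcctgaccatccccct
SSX1: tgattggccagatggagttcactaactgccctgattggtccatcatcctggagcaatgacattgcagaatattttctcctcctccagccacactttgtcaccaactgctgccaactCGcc
SYCP3: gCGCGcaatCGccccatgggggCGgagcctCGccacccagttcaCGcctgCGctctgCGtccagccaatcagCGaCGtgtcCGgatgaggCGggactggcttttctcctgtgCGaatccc
DAZL: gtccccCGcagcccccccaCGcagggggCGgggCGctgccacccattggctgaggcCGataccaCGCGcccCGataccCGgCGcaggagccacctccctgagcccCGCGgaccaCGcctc
The PRAME stretch lies at chr22:22901769-22901888 on the minus strand and the SSX1 stretch at chrX:48114707-48114826 on the plus strand. Those of SYCP3 and DAZL lie at chr12:102133251-102133370 and chr3:16646931-16647050, on the minus strand.

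CpG content was counted for every member in a window of 300 bases, from 250 before to 50 after the canonical start. Windows of the 19 members that were on in untreated cells, as defined below, held a median of 14 CpG and those of the 21 others a median of 21. The median was 13 for the 26 X-linked members, 24 for the 14 autosomal members and 23 for 18023 protein-coding genes. SSX1 had 5 CpG in its window, PRAME 13, SYCP3 24 and DAZL 33. The difference between members that were on and the others was not seen among X-linked members alone, whose medians were 14 CpG for the 17 that were on and 13 for the 9 that were not. Among the autosomal members, the 12 that were not on had a median of 24 CpG, and the 2 that were on had 13 and 27. MAEL, with 27 CpG and RNA in every library, lay apart from the other CpG-rich autosomal members.

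**Figure D1:**
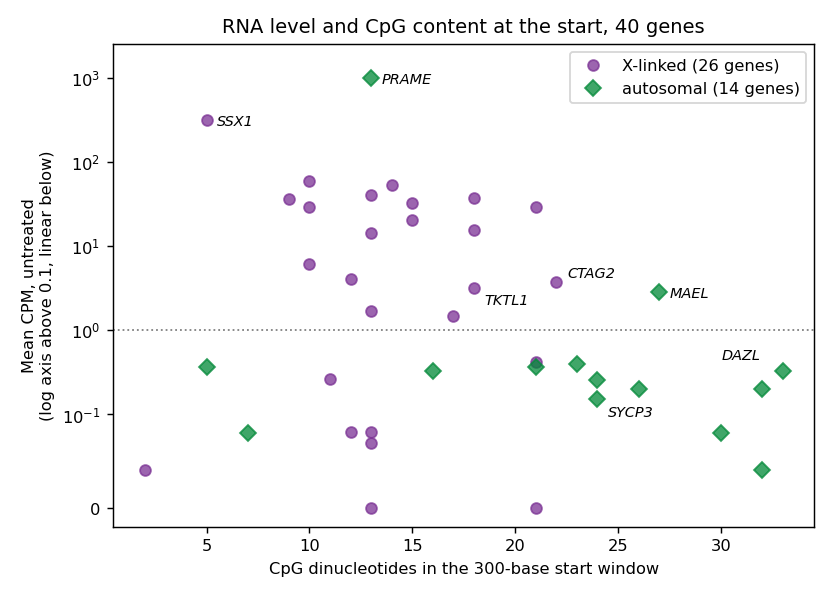
Mean CPM in the 3 untreated RNA libraries against the number of CpG dinucleotides in the 300-base start window, for 26 X-linked and 14 autosomal genes, with a dotted line at 1 CPM. PRAME (13 CpG) and SSX1 (5 CpG) sit highest, and of the autosomal genes only PRAME and MAEL lie above the line.

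The MAGE genes, whose proteins pair with ubiquitin ligases, share a short stretch next to their starts. The letters CCGGATGTG, noticed in the upstream sequences and searched on both strands, were present in the windows of 10 of 14 MAGE members, 0 of the 26 other members and 84 of 18023 protein-coding genes, or 0.466%. The MAGE genes descend from shared ancestors, so these windows are not independent of each other. The letters were also picked from these same sequences, so their high share among MAGE members is not a test of them. The protein-coding genes include the MAGE members. The letters were found in 7 of 10 MAGE members that were on and in 3 of 4 that were not. It is shown in capitals for MAGEA12, MAGEB1 and MAGEC1, which were on, and for MAGEA4, which was not.
MAGEA12: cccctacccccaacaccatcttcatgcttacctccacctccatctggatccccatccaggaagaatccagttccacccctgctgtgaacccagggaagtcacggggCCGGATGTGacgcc
MAGEB1: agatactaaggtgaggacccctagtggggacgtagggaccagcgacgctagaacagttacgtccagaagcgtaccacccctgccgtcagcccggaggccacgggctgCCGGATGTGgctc
MAGEC1: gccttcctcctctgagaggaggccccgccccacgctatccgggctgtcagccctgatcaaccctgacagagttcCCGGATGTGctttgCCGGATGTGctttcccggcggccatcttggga
MAGEA4: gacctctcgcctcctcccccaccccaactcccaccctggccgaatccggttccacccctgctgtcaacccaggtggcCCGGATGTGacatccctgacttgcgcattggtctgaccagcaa
The MAGEA12 stretch lies at chrX:151903207-151903326 on the minus strand. The others lie at chrX:30265143-30265262, chrX:140991560-140991679 and chrX:151080847-151080966 on the plus strand for MAGEB1, MAGEC1 and MAGEA4. The stretch occurs at 2 places upstream of MAGEC1. The E-box CACGTG, also searched on both strands, was in the windows of 12 of the 26 members outside the MAGE family and of 0 of 14 MAGE members, against 1584 of 18023 protein-coding genes (8.79%). Of the 12, GAGE1, GAGE2A and GAGE12J are copies with the same upstream bases, as are CTAG1B and CTAG2, so these windows are not independent either. Members with it also included MAEL, DDX4, TDRD1 and BRDT, and it was present in 5 of 19 members that were on and 7 of 21 that were not. The E2F-like letters GGCGGGAA were in 5 of 40 members (12.5%) and 4.25% of all such genes, and the ETS-like letters CCGGAA in 10 (25.0%) and 22.6%. Other forms of ETS-like letters were not counted as such, so these shares are not a total for ETS-like sites. These matches are descriptions of letters and not of bound sites.

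In untreated cells 19 of the 40 members were on, meaning at least 1 CPM in each of the 3 libraries after TMM scaling. The share was 47.5%, beside 53.9% of 18028 protein-coding genes with a known position. By chromosome, 17 of 26 X-linked members (65.4%) and 2 of 14 autosomal members (14.3%) were on, beside 46.1% of all X-linked and 54.4% of all autosomal protein-coding genes. The 2 autosomal genes were PRAME, on chromosome 22, and MAEL, on chromosome 1. By family, 6 of 9 MAGEA members were on, as were 2 of 2 MAGEB, 2 of 3 MAGEC, 2 of 3 PAGE, 2 of 3 SSX, 1 of 3 GAGE and 1 of 2 CTAG members. The count was 20 at a threshold of 0.5 CPM and 17 at 2 CPM.

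PRAME, which codes for a repressor of retinoic acid receptor signalling and lies at chr22:22890123-22901768, was the most abundant member. Its levels were 1040, 989 and 926 CPM in untreated replicates 1, 2 and 3, which placed it 94th by mean CPM among all 55766 genes. They were 1010, 970 and 1150 CPM with TALE and 1020, 1130 and 1030 CPM with dCas9, and the 3 groups overlapped. SSX1, which codes for a nuclear repressor known from its fusion with SS18 in synovial sarcoma, lies at chrX:48114827-48126879 and ranked 460th. Its untreated libraries had 322, 304 and 308 CPM, its TALE libraries 260, 236 and 321 CPM and its dCas9 libraries 271, 303 and 250 CPM. Every dCas9 library lay below every untreated library, though dCas9 replicate 2 nearly met untreated replicate 2. The TALE libraries reached into the untreated range. Per kilobase of annotated exon the levels of these genes were alike, at 259 ± 14.6 (SD, n = 3) CPM per kilobase (RPKM) for PRAME and 255 ± 7.66 (SD, n = 3) for SSX1 in untreated cells. That length joins the exons of all annotated transcripts, 3805 bases for PRAME, where a single transcript has 2303. For SSX1 both lengths are 1223 bases. The likeness therefore depends on the length used, as does the order on this scale below.

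PAGE5 and PAGE1, X-linked relatives of the GAGE family, came next on the RPKM scale, at 77.5 ± 9.48 and 61.6 ± 7.86 (SD, n = 3). Then followed MAGEA12 with 18.4 ± 1.02, MAGEB2 with 18.0 ± 0.461, MAGEA6 with 17.4 ± 0.467 and MAGEA3 with 16.6 ± 1.86 RPKM, each with SD over 3 untreated libraries. The differences among these MAGE levels were of the size of their SDs or close to it. MAGEC2 had 14.6 ± 1.69, MAGEC1 12.4 ± 1.60, MAGEA1 11.9 ± 0.973 and MAGEB1 7.67 ± 0.0476 RPKM. The lower group was GAGE1 at 4.6 RPKM, SSX2 at 3.97, CTAG2 at 3.75, MAGEA8 at 1.74, MAEL at 0.898, TKTL1 at 0.879 and MAGEA2 at 0.656 RPKM. PAGE2 fell just outside the rule, with 0.873, 1.98 and 2.18 CPM in the untreated libraries, and MAGEA2 just inside it, with 1.66, 1.48 and 1.33 CPM.

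**Figure D2:**
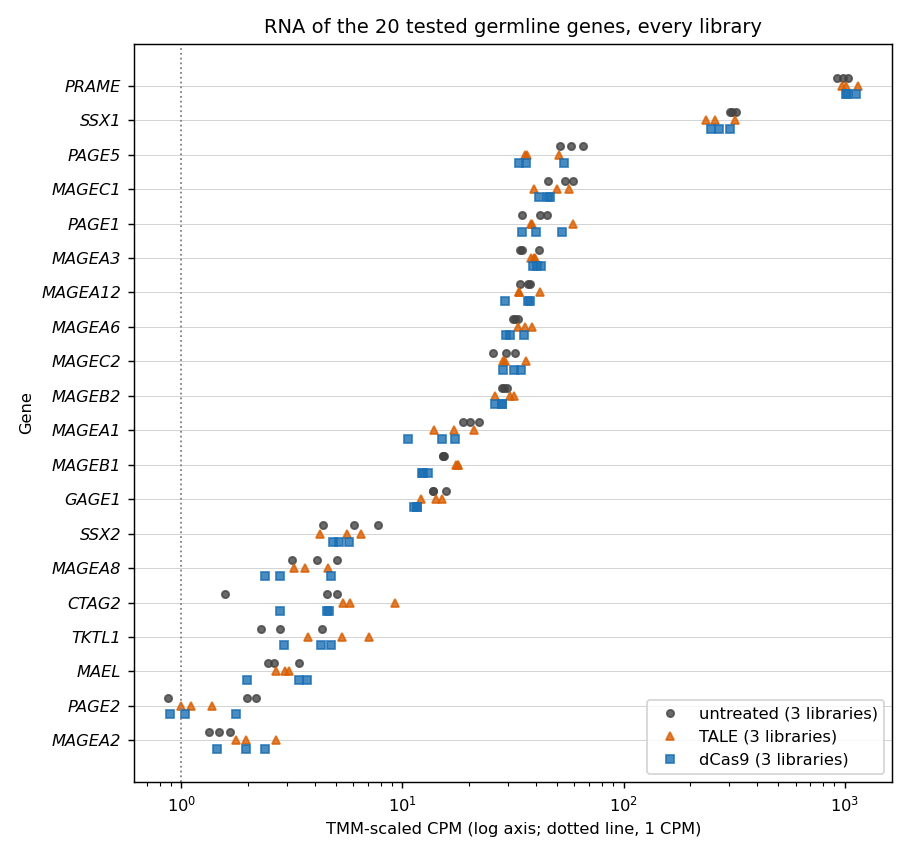
TMM-scaled CPM on a log axis of the 20 genes with enough counts for a test, 1 point per RNA library in 3 groups of 3, ordered by the untreated mean. PRAME (926 to 1150 CPM) and SSX1 (236 to 322 CPM) stand above the rest, and most genes show groups that overlap.

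Several members have near-identical copies, so their rows are uncertain where the authors' counting could split or drop shared reads. All 50-base words of the MAGEA2 and CTAG1B transcripts occur in transcripts of another gene, as do 99.7% of those of SSX4, 99.5% of SSX2, 90.2% of GAGE2A and 89.8% of GAGE12J. The share was 58.5% for MAGEA6, 47.4% for MAGEA3, 44.5% for CTAG2, 42.1% for PAGE2 and 0.0% for PRAME. GAGE2A and CTAG1B, which codes for the tumour antigen NY-ESO-1, had 0 counts in all 9 libraries, which by 3 counts over all libraries allows up to 0.0325 CPM for reads that could be assigned, by counting error only. Of 17 GAGE rows, 14 had 0 counts in all 9 libraries, while GAGE1 had 112 to 158. The upstream 120 bases are no help in separating these copies. Those of GAGE1, GAGE2A and GAGE12J were identical at all 120 positions, as were those of CTAG1B and CTAG2, so 1 stretch is shown for each family, with CpG in capitals.
GAGE1: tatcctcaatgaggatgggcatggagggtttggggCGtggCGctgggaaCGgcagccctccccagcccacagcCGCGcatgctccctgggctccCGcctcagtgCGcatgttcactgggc
CTAG2: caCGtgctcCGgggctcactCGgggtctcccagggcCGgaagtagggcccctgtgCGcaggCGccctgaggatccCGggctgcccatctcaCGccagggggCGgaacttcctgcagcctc
The GAGE1 stretch lies at chrX:49363503-49363622 on the plus strand and the CTAG2 stretch at chrX:153881854-153881973 on the minus strand. Since most or all 50-base words of the GAGE2A and CTAG1B transcripts are shared, a count of 0 for either does not show that the gene was off. SSX2 had 6.05 ± 1.69 CPM (SD, n = 3) in untreated cells and its copy SSX2B 8.16 ± 0.532 CPM. MAGEA12 overlaps CSAG4 on the same strand, and the CSAG4 row had 11 to 34 counts per library.

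The remaining members were at trace level. Of the 40 members, 20 had too few counts for a test, and besides the 2 at 0 they had at most 9 counts in any library. For meiosis, SYCP3, a protein of the chromosome axis, had 1, 2 and 1 counts in untreated replicates 1, 2 and 3, 0, 2 and 1 with TALE and 8, 2 and 4 with dCas9. SYCP3 lies inside CHPT1 on the opposite strand, whose row had 259 to 449 counts, and the use of strand in counting is not given in the sources used here. SPO11, which makes the breaks that start meiotic recombination, had 0 to 4 counts per library, and SYCE1, of the synaptonemal complex, 0 to 5. For the piRNA pathway, TDRD1 had 0 to 7 counts, PIWIL1 0 to 2, PIWIL2 0 to 9 and the helicase DDX4 0 to 6. DDX4 overlaps SLC38A9 on the opposite strand, whose row had 153 to 230 counts. MAEL, which acts in the same pathway, was the exception, with 2.62, 2.47 and 3.39 CPM in untreated cells, 2.94, 3.08 and 2.69 CPM with TALE and 3.71, 3.42 and 1.98 CPM with dCas9. The RNA-binding protein gene DAZL had 0 to 4 counts, the testis bromodomain gene BRDT 0 to 9, the pluripotency-linked DPPA4 and DPPA2 0 to 7 and 0 to 3, and FKBP6 0 to 2. Of the X-linked members, MAGEA4 had 0 to 4 counts, MAGEA11 0 to 7, MAGEA10 and SSX4 0 to 1, MAGEC3 0 to 1 and GAGE12J 0 to 2.

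Trace detection followed 1 library. Untreated replicate 3 had a count in 17 of the 20 untested members, with 53 counts in all, and the other 8 libraries had one in 7 to 11, with 11 to 30 counts. The same library had a count in 46.0% of all untested gene rows, against 18.9% to 26.6% in the others. In BRDT, MAGEA11, SYCE1 and DPPA4 the highest count of the 9 libraries, at 9, 7, 5 and 7, came from it. With at least 1 count in each untreated library, 24 of the 40 members were detected, and the number was also 24 without that replicate. Its part in the trace counts was not tested. The number of members that were on stayed at 19 without it.

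**Figure D3:**
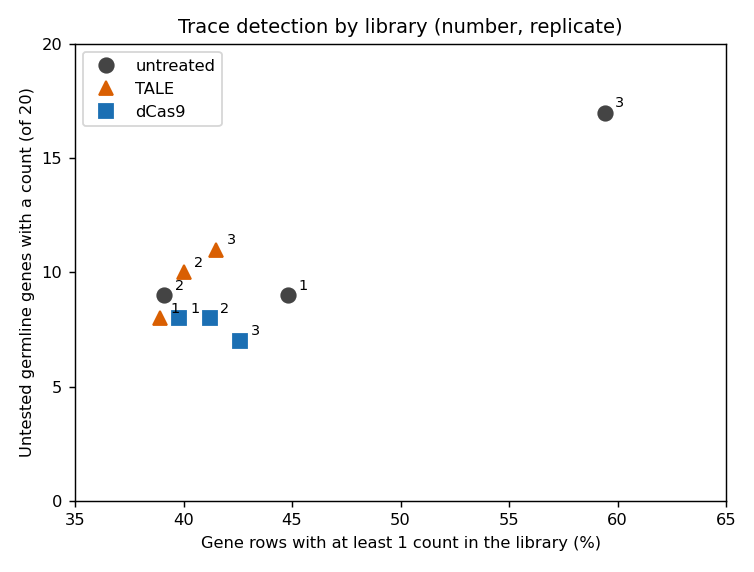
Number of the 20 untested germline genes with at least 1 count against the share of all gene rows with a count, 1 point per RNA library labelled by replicate. Untreated replicate 3 (17 genes, 59.4% of rows) lies apart from the other 8 libraries (7 to 11 genes).

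The design asks whether cells treated with either repressor system differed from untreated cells away from the target. With edgeR's quasi-likelihood test over all genes, 0 of the 20 tested members passed a Benjamini-Hochberg adjusted p of 0.05 for TALE against untreated, where 3 of 13786 genes (0.0218%) passed. The number was 0 of 20 for dCas9 against untreated, with 4 genes (0.029%) over the table, and 0 of 20 for TALE against dCas9, with 0 genes (0.0%). DESeq2 also called 0 members in each. Before adjustment, 3, 4 and 2 members had a p under 0.05 in these comparisons, beside 7.15%, 5.93% and 6.38% of all genes tested. The members' median log2 fold change was 0.04 for TALE against untreated and -0.06 for dCas9 against untreated, beside 0.00 for all genes tested in each. The TALE and dCas9 contrasts with untreated cells share the same 3 controls. The other 20 members, which had too few counts, were not tested. In bulk RNA, fewer cells with a transcript and less of it per cell cannot be told apart.

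The intervals limit what could have been missed. For PRAME the log2 fold change was 0.08 with TALE (95% confidence interval from -0.21 to 0.38) and 0.11 with dCas9 (from -0.18 to 0.40). For SSX1 it was -0.19 (from -0.47 to 0.09) and -0.18 (from -0.46 to 0.10). Members with few counts had wide intervals, such as PAGE2 from -1.39 to 0.41 with TALE, which is a fold from 0.382 to 1.33.

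PAGE5 had the lowest unadjusted p of the comparisons with untreated cells. Its levels were 51.5, 57.6 and 65.7 CPM in untreated cells, 35.7, 36.5 and 51.2 with TALE and 53.6, 36.2 and 33.8 with dCas9. Every TALE library lay below every untreated library, though TALE replicate 3 nearly met untreated replicate 1, and dCas9 replicate 1 lay within the untreated range. The log2 fold change was -0.50 (SE 0.17, adjusted p = 0.585 by edgeR) with TALE and -0.50 (SE 0.17, adjusted p = 0.595) with dCas9. Without TALE replicate 3 or without dCas9 replicate 1 the adjusted p was 0.088 and 0.0961, and neither passed.

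MAGEB1 showed 3 separate groups. Its untreated libraries had 15.2, 15.3 and 15.4 CPM, its TALE libraries 17.8, 17.5 and 17.8 CPM and its dCas9 libraries 12.2, 13.0 and 12.4 CPM. All TALE libraries were above and all dCas9 libraries below the untreated range. The log2 difference of TALE from dCas9 was 0.50 (SE 0.13, adjusted p = 0.511 by edgeR), 0.21 for TALE against untreated (adjusted p = 0.771) and -0.28 for dCas9 against untreated (adjusted p = 0.84). The coefficient of variation in untreated libraries was 0.62%, below the 8.40% that counting alone gives at its 124 to 174 counts, so the 3 libraries lay closer together than counting error gives on average. The edgeR test shares information on spread across genes and did not call the gene.

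MAGEA1 had 22.1, 20.3 and 18.8 CPM in untreated cells, 13.9, 17.1 and 21 with TALE and 17.2, 10.6 and 15.1 with dCas9. Every dCas9 library was below every untreated library, with a log2 fold change of -0.51 (SE 0.18, adjusted p = 0.622 by edgeR). GAGE1 had 13.8, 15.8 and 13.7 CPM in untreated cells, 15.1, 12.1 and 14.2 with TALE and 11.6, 11.6 and 11.3 with dCas9. Its dCas9 libraries also all lay below the untreated range, with a log2 fold change of -0.33 (SE 0.15, adjusted p = 0.827 by edgeR).

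CTAG2 and TKTL1 were higher on average with TALE. CTAG2, which codes for the antigen LAGE-1, had 4.54, 5.07 and 1.57 CPM in untreated cells, 5.39, 5.78 and 9.26 with TALE and 4.54, 2.80 and 4.66 with dCas9. Its TALE libraries all lay above both other groups, and its log2 fold change was 0.85 (SE 0.33, adjusted p = 0.596 by edgeR). The untreated mean rests on a low value in replicate 3. TKTL1, a transketolase-like gene, had 2.79, 4.32 and 2.3 CPM in untreated cells, 3.72, 5.32 and 7.04 with TALE and 4.26, 2.90 and 4.76 with dCas9. Its groups overlapped, with a log2 fold change of 0.78 (SE 0.30, adjusted p = 0.585 by edgeR) with TALE. MAGEA2 had 1.96, 1.77 and 2.69 CPM with TALE, all above its untreated libraries, and 1.95, 1.45 and 2.38 with dCas9.

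In all, the groups did not overlap for 4 of 20 members in TALE against untreated, 3 of them higher with TALE, where 12.5% of all tested genes did not overlap. For dCas9 against untreated 4 of 20 members did not overlap, all lower with dCas9, beside 11.6% of all genes. For TALE against dCas9 it was 3 of 20, all higher with TALE, beside 9.38%. Over all tested genes, 839 of the separated ones were higher and 888 lower in TALE against untreated. The numbers were 772 higher and 823 lower for dCas9 against untreated, and 673 and 620 for TALE against dCas9. Without untreated replicate 3 there were 5 of 20 members in each of the comparisons with untreated cells, beside 17.2% of all tested genes for TALE and 17.4% for dCas9.

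The other tested members had adjusted p-values of at least 0.824 in the 3 comparisons, apart from PRAME, SSX1, MAGEA2 and MAEL, whose levels are given above. MAGEA3 had 41.5, 34.8 and 34.0 CPM in untreated cells, 39.9, 39.2 and 38.0 with TALE and 40.4, 38.9 and 42.3 with dCas9. MAGEA6 had 33.3, 31.6 and 32.2 CPM, then 33.3, 38.6 and 35.7 with TALE and 35.4, 29.4 and 30.7 with dCas9. MAGEA12 had 37.7, 33.9 and 36.8 CPM, then 33.7, 33.6 and 41.8 with TALE and 37.1, 29.2 and 37.7 with dCas9. In these 3 neighbouring genes the groups overlapped throughout. MAGEB2 had 28.7, 29.7 and 28.2 CPM, then 26.2, 32.0 and 30.7 with TALE and 28.2, 26.3 and 28.3 with dCas9. MAGEC1 had 45.6, 59.1 and 54.2 CPM, then 56.9, 49.9 and 39.3 with TALE and 46.3, 41.4 and 45.5 with dCas9. MAGEC2 had 25.6, 29.4 and 32.3 CPM, then 29.1, 28.4 and 36.3 with TALE and 34.2, 31.9 and 28.6 with dCas9. These groups overlapped as well. PAGE1 had 44.9, 41.9 and 34.9 CPM, then 38.6, 38.2 and 59.0 with TALE and 52.5, 40.2 and 34.9 with dCas9. SSX2 had 4.36, 6.05 and 7.74 CPM, then 5.59, 4.24 and 6.48 with TALE and 5.75, 4.87 and 5.16 with dCas9. MAGEA8 had 4.10, 5.07 and 3.15 CPM, then 4.61, 3.24 and 3.61 with TALE and 4.73, 2.80 and 2.38 with dCas9. PAGE2 had 1.37, 1.00 and 1.11 CPM with TALE and 1.76, 1.04 and 0.892 with dCas9. In these genes, too, the groups overlapped in every comparison.

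**Figure D4:**
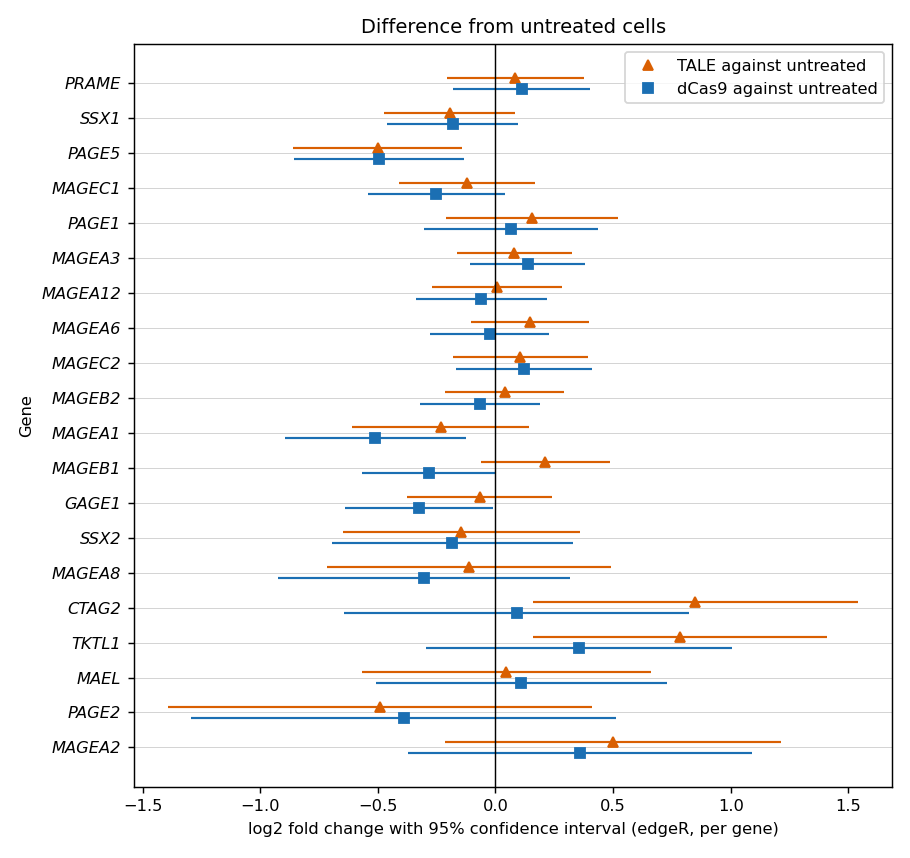
Log2 fold change of TALE (triangles) and dCas9 (squares) against untreated cells for the 20 tested genes, ordered by untreated level. The 95% confidence intervals were computed per gene from edgeR's test. Intervals of PAGE5 lie below 0 for both treatments, those of MAGEA1, MAGEB1 and GAGE1 below 0 for dCas9 and those of CTAG2 and TKTL1 above 0 for TALE, while 0 genes passed the adjusted threshold.

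A wider list of 177 other germline and cancer-testis genes had 168 rows in the table, of which 36 (21.4%) were on in untreated cells and 50 had enough counts for a test. With edgeR 0 of 50 passed in each of the 3 comparisons, with 4, 6 and 3 at an unadjusted p under 0.05 for TALE against untreated, dCas9 against untreated and TALE against dCas9. These are 8.0%, 12.0% and 6.0% of the 50, beside 7.15%, 5.93% and 6.38% of all genes tested. DESeq2 called 0 in each. The most abundant were GTSF1, a piRNA pathway gene, with 345 ± 24.4 CPM in untreated cells (SD, n = 3), and CTCFL, the germline relative of CTCF, with 279 ± 16.2 CPM. TEX15 had 83.1 ± 5.91, ODF2 84.8 ± 0.302, RHOXF2 79.6 ± 7.49 and MEIOB 65.3 ± 7.26 CPM. RHOXF2, an X-linked homeobox gene, had 53.4 ± 16.2 CPM with dCas9 and a log2 fold change of -0.58 (SE 0.16, adjusted p = 0.388 by edgeR). Its call turned to significant without a filter on low counts (adjusted p = 0.0333) and without dCas9 replicate 1 (adjusted p = 0.0456). Over all genes that comparison gave 89 calls of 41469 genes without the filter and 8 of 14057 without that replicate, against 4 in the reported fit.

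Another list of 24 genes held repressors known to hold germline genes off and, with them, the TET demethylases. Of the 24, 23 were on and tested, and edgeR and DESeq2 called 0 in each comparison, with 0 at an unadjusted p under 0.05. DNMT1, the maintenance methyltransferase, had 255 ± 12.1 CPM in untreated cells, 283 ± 54.5 with TALE and 283 ± 52.6 with dCas9 (SD, n = 3). CBX3, HDAC1, TRIM28 and HDAC2, which read or remove histone marks or recruit those that do, had 354, 235, 198 and 179 CPM, and the demethylase TET1 had 169 CPM. DNMT3L, a germline cofactor of methyltransferases, had 3, 1 and 1 counts in untreated replicates, 0, 1 and 0 with TALE and 0 in the 3 dCas9 libraries.

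MeDIP regions near the starts gave a second readout. A region of the deposited table lay within 2000 bp of an annotated start for 21 of 40 members (52.5%), beside 64.1% of protein-coding genes. Among members the share was 52.6% for those that were on and 52.4% for the others, while over all protein-coding genes it was 86.1% for genes that were on and 38.3% for the rest. A region overlapped a start itself in 1 of 19 members that were on (5.26%) and in 4 of 21 others (19.0%), where the shares over all protein-coding genes were 23.2% and 5.75%. The table holds regions near only some starts, by a rule that is not given in the sources used here.

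The region over the SYCP3 start was the strongest of members that were not on. It lies at chr12:102131935-102133736, with 486 bases upstream of the gene, 122 in exons and 1194 in introns, and it holds 99 CpG, or 5.49 per 100 bases. Counts were 79, 86 and 99 in untreated replicates, 97, 73 and 92 with TALE and 80, 111 and 65 with dCas9. The 3 groups overlapped, with log2 fold changes of 0.09 and -0.04 against untreated and intervals from -0.28 to 0.46 and from -0.41 to 0.33. A peak covered a SYCP3 start in all 9 of the authors' lists, at a fold enrichment of 1.80 to 3.22, the authors' own value. DAZL, whose upstream stretch shown above is also rich in CpG, had 0 regions within 2000 bp and 0 peaks in 9 lists, as had TDRD1, PIWIL1, PIWIL2, SPO11, FKBP6, DPPA2 and DPPA4. These genes were at trace level in RNA as SYCP3 was. A start without a region or a peak is not shown to be unmethylated, since the capture has a detection limit that these files do not give.

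PRAME, though on, had the highest MeDIP level of all members. The region at chr22:22902546-22903294, 778 bp upstream of the nearest start, had 138, 132 and 152 counts in untreated cells, 106, 121 and 174 with TALE and 127, 158 and 118 with dCas9. The region at chr22:22898140-22899077, in the gene and over an alternative start, had 140, 92 and 143 counts, then 89, 102 and 189 with TALE and 112, 158 and 104 with dCas9. All groups overlapped, and the log2 fold changes against untreated lay between -0.04 and 0.08. On MeDIP CPM these regions had 48.6 ± 6.90 and 42.2 ± 2.83 in untreated cells (SD, n = 3), beside 30.5 ± 6.12 for SYCP3. The regions differ in length and CpG number, so these levels are not a scale of methylation per CpG. The 120 bases printed for PRAME lie outside both regions.

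The other members with RNA differed in their MeDIP signal. SSX1, PAGE1, MAGEA8, MAGEA12, MAGEC1, MAGEC2, CTAG2 and MAEL had 0 regions within 2000 bp and 0 peaks in the 9 lists. MAGEA3 had 0 regions but a peak within 2000 bp in 6 of 9 lists, none of them over a start. A peak within 2000 bp was listed in 9 of 9 lists for MAGEA2 and GAGE1 and in 8 of 9 for SSX2 and TKTL1, with a peak over a start in 1 list for each of these 4 genes. For PAGE5, whose RNA was described above, the region at chrX:55246104-55246394, 385 bp upstream, had 11, 0 and 4 counts in untreated replicates, 1, 0 and 0 with TALE and 0, 0 and 0 with dCas9, too few for a test. The counts in other regions at members that were on were also low, including MAGEA2, GAGE1 and SSX2, which share transcript sequence with other genes, at 2 to 11 per library for MAGEB2, 1 to 14 for MAGEB1, 0 to 11 and 0 to 9 for the 2 regions of MAGEA1, 0 to 4 for MAGEA6, 2 to 5 for MAGEA2, 3 to 13 for GAGE1 and 0 to 2 for SSX2. The TKTL1 region at chrX:153525278-153525603, in an intron 1126 bp from a start, had 13 to 23 counts per library. Among X-linked members that were not on, the MAGEA4 region at chrX:151087960-151088107, in an intron 55 bp from a start, had 18, 5 and 14 counts in untreated replicates, 2, 2 and 6 with TALE and 8, 10 and 5 with dCas9. Its level was 4.00 ± 1.73 CPM in untreated cells, 1.12 ± 0.463 with TALE and 2.64 ± 0.502 with dCas9 (SD, n = 3), and it had too few counts for a test. Scaled to library size, its TALE libraries all lay below its untreated libraries. At the BRDT region chr1:92415829-92415832, with 1 to 5 counts per library, all TALE libraries instead lay above the untreated ones. The BRDT region is only 4 bases long. Other regions at member starts separated as well. At the GAGE2A region described below, all TALE libraries lay below the untreated ones. At the MAGEA1 region chrX:152483934-152484264, all dCas9 libraries lay above them. The share of all MeDIP regions whose groups did not overlap was not computed, so none of these separations has a background beside it. The MAGEA10 region over its start at chrX:151306852-151307089 had 2 to 15 counts, and the PAGE2 region at chrX:55115538-55115899 had 6 to 20. GAGE2A had a region of 101 CpG over its start at chrX:49352136-49354924, with 4 to 20 counts and a peak in all 9 lists. Peaks over a start of MAGEA4 were also in all 9 lists, and BRDT had them in 8, although the table holds regions beside those starts and not over them.

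Only 8 regions at starts of members had enough counts for a test, from SYCP3, PRAME, GAGE2A, PAGE2 and TKTL1. With edgeR 0 of 8 passed for TALE against untreated, where 0 of 105652 regions (0.0%) passed. It was 0 of 8 for dCas9 against untreated and for TALE against dCas9, with 1 region (0.000947%) over the table in each. Before adjustment, 0 of 8 had a p under 0.05 in each, beside 4.74%, 4.69% and 4.47% of all regions tested. DESeq2 was not run on MeDIP counts. The median log2 fold change of the 8 was 0.01 for TALE and -0.04 for dCas9 against untreated.

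Some regions near these starts held no counts. Of 34 regions within 2000 bp of a member start, 8 (23.5%) had 0 counts in all 9 libraries, beside 1.62% of all 198884 regions. They lie at MAGEA4, which has 2, and at CTAG1B, GAGE1, GAGE12J, MAGEA2, SSX2 and SYCE1. All 50-base words of CTAG1B and MAGEA2 transcripts are shared with another gene, as above, and the share is 99.5% for SSX2 and 89.8% for GAGE12J. For GAGE1 it is 13.7%, for MAGEA4 3.70% and for SYCE1 0.0%. These are shares of transcripts, and sharing of the regions' own sequence was not measured. The empty regions of MAGEA4 and SYCE1 hold 0 exon bases, and 351 of the 443 bases of the GAGE1 region are intron. What removed the counts was not tested.

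**Figure D5:**
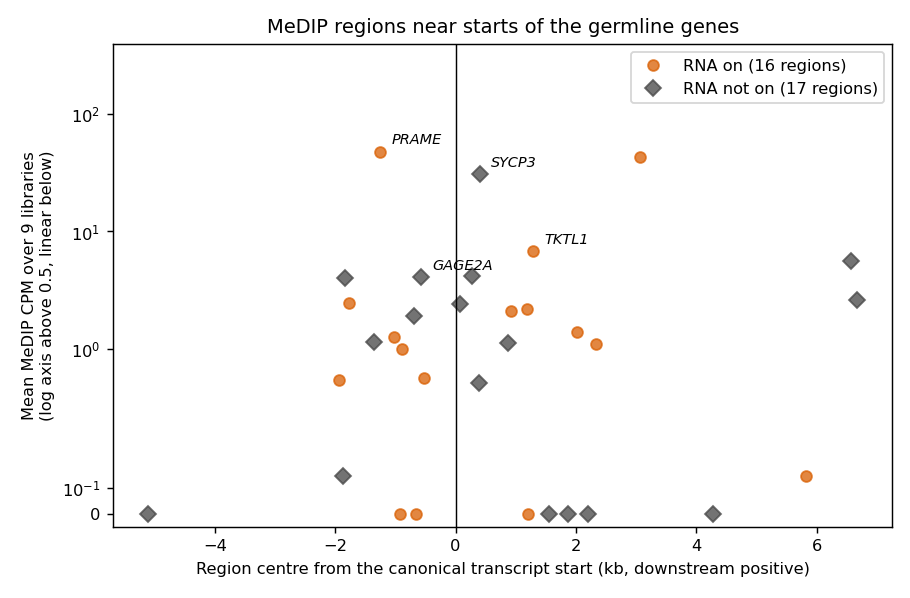
Mean MeDIP CPM over 9 libraries of 33 regions near member starts against the distance of their centre from the canonical start in kilobases, by whether the gene was on in untreated RNA. Another region, beyond 10 kb from the canonical start of BRDT, is not drawn. PRAME and SYCP3 stand highest, and 8 regions lie at 0.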

How the data were processed

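Groups and replicate numbers came from the sample titles. The deposited RNA and MeDIP tables hold raw counts made by the authors, per gene symbol and per region. Per the submitters' processing notes, RNA reads were aligned with STAR 2.3.0 and MeDIP reads with BWA 0.7.5, both to hg19, and Picard, MACS2 and bedtools were used for MeDIP. The counter, annotation, use of strand and rule for regions are not given in the sources used here. Per the labels' protocols, cDNA came from an amplification kit for degraded RNA, and MeDIP libraries were pooled before capture. The deposited peak lists, called per sample, give a fold enrichment ratio that is the authors' value and was used only to describe peaks.

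Counts were tested with edgeR 4.0.16 (R 4.3.3), using TMM factors, filterByExpr with a minimum of 10 counts, and 1 model of group means over the 9 libraries of an assay. This left 13786 of 55766 genes (24.7%) and 105652 of 198884 regions. DESeq2 1.42.0 was an alternative for RNA, and scripts were tested on simulated data. Positions, starts and sequences came from GENCODE on GRCh37, the same assembly as hg19, and RPKM uses the summed exon length there. Intervals for fold changes are at 95% confidence. They and the SEs were computed from edgeR's log2 fold changes and test statistics. Nothing states that replicates were separate cultures, so p-values measure only the spread between these samples, which may be technical. The members and lists were chosen with earlier results of these data known. All 40 members are accounted for. Values per library are given for members with at least 1 CPM on average in any group. Of the other lists, members called in any comparison and the 6 with the highest mean CPM are named. DNMT3L, SSX2B, CSAG4 and the letters CCGGATGTG were chosen after their values were seen. Alternatives were other normalizations, filters, tests, windows and thresholds, a replicate block, and leaving out each library.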

Additional observations from a re-analysis of the deposited data

How the results depend on the processing

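Across 45 alternative fits of the RNA comparisons, 0 members and 0 genes of the list of repressors and demethylases were called. Across 48 alternatives for the MeDIP comparisons, which include other windows read from the reported fit, 0 regions at member starts were called. The lowest adjusted p of a tested member over the RNA fits was 0.088. Of 897 alternative log2 fold changes of the tested members, 52 had another sign than the reported value, all for values of at most 0.18 in size, and 0 of these had an unadjusted p under 0.05. For the wider germline list, dCas9 against untreated gave 1 call (RHOXF2) without a filter on low counts and 0 to 1 calls when libraries were left out, with the 1 call without dCas9 replicate 1, where the reported fit gave 0. The cause was not tested. The number of members that were on was 17 to 20 over thresholds and left-out libraries, and the number with a region near a start was 16 within 1000 bp and 26 within 5000 bp.

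With the replicate number as a block, 0 members were called in each comparison, with lowest adjusted p-values of 0.691, 0.816 and 0.68 for TALE against untreated, dCas9 against untreated and TALE against dCas9, and 0 regions at starts. Deviations of same-numbered RNA libraries correlated between -0.284 and 0.103, so the numbers were not taken to pair samples. Depth limits the result: 20 members had too few counts for a test, and most regions at starts had under 10 counts per library. DESeq2 was not planned or run for MeDIP. The count of members detected without a left-out untreated library, 24 to 29, was added after the data were seen.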
